A study of Mus musculus with 6 samples.

Results

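The islet homeodomain transcription factor genes examined here were Pdx1, Nkx6-1, Nkx2-2, Pax6, Isl1, Mnx1, Pax4, Irx1 and Irx2, 9 of 21887 protein-coding genes in the RefSeq gene table of GRCm38.p6. They were listed by name, as genes active or silent in beta cells, and every peak in the gene body or within 50 kb of either end was taken. Peaks were called on CUT&RUN libraries of MIN6, an insulin-secreting mouse line that the labels call beta cells. In CUT&RUN a nuclease tethered to an antibody cuts out the bound DNA for sequencing. Each sample took 500000 cells in 0.01% digitonin, and the treatment label of a sample names its antibody only. There were 3 groups of 2 replicates, endogenous MafA, H3K4me3 (positive control) and IgG (negative control), of which IgG was not analysed here. The labels do not name separate cultures, so the spread between replicates may be technical, and a single cell line is all that was sampled.

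Homeodomain proteins bind DNA through a conserved fold of helices and set cell identity in the developing pancreas and in mature islets. Pdx1, Nkx6-1, Nkx2-2, Pax6, Isl1 and Mnx1 are needed for the formation or the maintenance of beta cells. Pax4 acts in endocrine progenitors, where it favours the beta and delta cell fates over the alpha cell fate. Irx1 and Irx2 are Iroquois factors known from alpha cells. MafA is a basic leucine zipper factor of mature beta cells that activates the insulin genes. H3K4me3 marks the starts of active or poised genes, and wide domains of it are known at genes of cell identity.

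For the label of the cells, H3K4me3 at gene starts was compared with cell type markers. An H3K4me3 region lay within 1 kb of a start of 3 of 4 beta cell markers, against 57% of all protein-coding genes. The 3 were Ins2, Slc2a2 and Mafa, but not Ins1. Among alpha cell markers, such a region also lay at Gcg, Irx1 and Irx2. None of the 2 delta (Sst, Hhex), 1 PP (Ppy), 2 acinar (Cpa1, Ptf1a) and 2 duct (Sox9, Krt19) markers carried one. The mark shows a chromatin state and not a level of RNA.

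The promoters of 3 members are shown beside the MafA peaks that met them. Those of Pdx1 and Pax6 met MafA peaks of both replicates. At Pdx1 the peak of replicate 2 covered the whole promoter, and that of replicate 1 only its upstream part. At Pax6 both peaks covered only the upstream part and ended before the start. That of Nkx6-1 held the MAF core and met a weak peak of MafA replicate 2, which did not reach the core. The promoters of Nkx2-2 and Isl1, not shown, also met a peak of MafA replicate 2 only. The sequences are from RefSeq on GRCm38.p6, 300 bases running from 250 before the start site, 5′ to 3′ on the gene's strand. Capitals mark the MAF core TGCTGA or its reverse complement. Pdx1 is at chr5:147269847-147270146 on the plus strand, Pax6 (the first of its 2 listed starts) at chr2:105668646-105668945 on the plus strand, and Nkx6-1 at chr5:101664662-101664961 on the minus strand.
Pdx1: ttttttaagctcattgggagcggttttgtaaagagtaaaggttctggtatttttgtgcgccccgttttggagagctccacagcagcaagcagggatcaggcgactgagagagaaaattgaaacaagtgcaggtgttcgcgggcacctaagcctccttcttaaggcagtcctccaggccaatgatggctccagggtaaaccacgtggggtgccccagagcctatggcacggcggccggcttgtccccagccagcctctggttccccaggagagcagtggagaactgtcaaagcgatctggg
Pax6: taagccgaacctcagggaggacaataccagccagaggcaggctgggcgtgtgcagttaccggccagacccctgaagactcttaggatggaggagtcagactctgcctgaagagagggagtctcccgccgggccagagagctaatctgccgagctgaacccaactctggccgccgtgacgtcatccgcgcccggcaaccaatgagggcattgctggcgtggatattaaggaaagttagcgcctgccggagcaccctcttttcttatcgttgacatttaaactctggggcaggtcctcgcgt
Nkx6-1: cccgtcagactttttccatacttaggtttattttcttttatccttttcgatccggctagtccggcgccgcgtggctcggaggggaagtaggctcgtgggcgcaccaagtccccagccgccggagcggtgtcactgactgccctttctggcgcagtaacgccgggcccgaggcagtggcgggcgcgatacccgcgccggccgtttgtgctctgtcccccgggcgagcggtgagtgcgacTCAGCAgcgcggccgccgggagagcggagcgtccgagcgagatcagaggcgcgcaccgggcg

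The table listed 8 promoters for 7 of the 9 genes. Pax4 and Irx1 had no entry. The MAF core, searched on both strands, was present in 1 of the 8 promoters, that of Nkx6-1, 12 to 7 bases before the start and on the opposite strand. It was present in 19.5% of all 32851 promoters of this length. The longer form TGCTGAC, the full palindrome TGCTGANTCAGCA and the homeodomain core TAATTA were each in 0 of the 8. Their shares over all promoters were 4.67%, 0.00609% and 5.29%. TGCTGA is contained in both longer forms. A match is a description of these letters only, and the windows hold none of the distal regions described next.

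A MafA region, meaning overlapping peaks of both replicates, lay in or within 50 kb of 8 of the 9 genes, all but Irx2. Over all protein-coding genes 66.1% had such a region, and over those with H3K4me3 at a start 84.2%, so the members' count is near the second of these shares. The 9 windows held 33 MafA regions and did not overlap each other. Pax6 had 8, Pdx1 7, Nkx6-1 and Isl1 5 each, Pax4 4, Nkx2-2 2, and Mnx1 and Irx1 1 each. The median was 4 over the 9 members, against 1 over all protein-coding genes and 2 over those with H3K4me3 at a start. In the ranking of all protein-coding genes by number of regions, Pax6 stood at percentile 96.8 and Pdx1 at 95.5, and Mnx1 and Irx1 at 44.0. For comparison, 12.6% of all protein-coding genes had at least 5 regions.

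**Figure D1:**
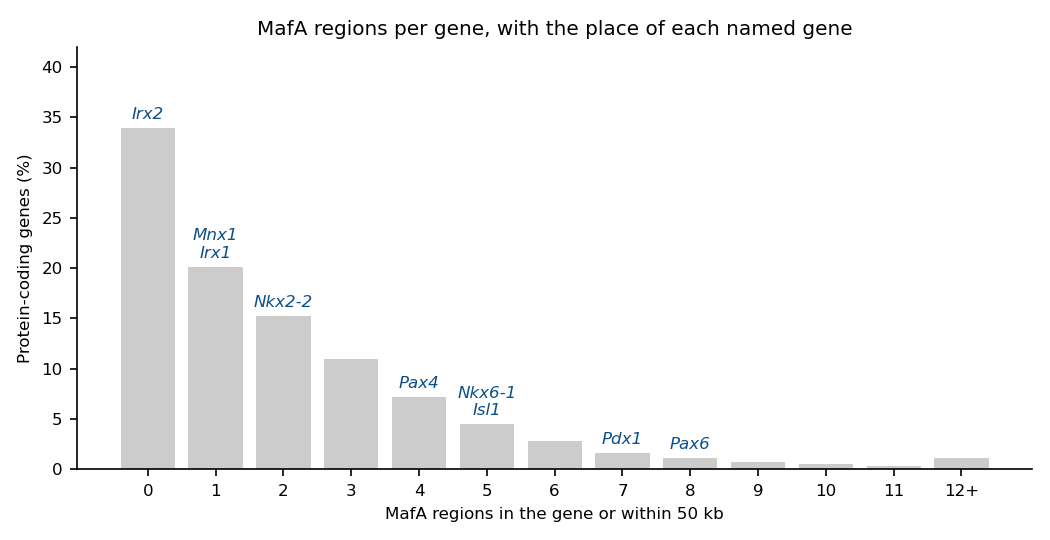
Number of MafA regions in the gene or within 50 kb (horizontal axis; genes with 12 or more are pooled) against the percent of all protein-coding genes with that number (bars). Names stand at the number of each member, from 0 for Irx2 to 8 for Pax6.

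The single libraries held more peaks than these shared regions. MafA replicate 1 had 43 peaks in the windows, of which 35 lay in a shared region (81.4%, against 81.2% for its whole list). Replicate 2 had 53, of which 33 did so (62.3%, against 60.8%). Peaks of 1 replicate only were weaker, with a median fold enrichment of 3.73 against 5.41 for shared peaks in replicate 1 and 2.98 against 6.58 in replicate 2. Fold enrichment is the authors' own value for a peak, the pileup of fragments at its summit over the modelled background there. Window peaks rested on 12 to 425 fragments at the summit in MafA replicate 1 and 17 to 1104 in replicate 2. The second library was the deeper, so fragment numbers are not comparable between the replicates.

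**Figure D2:**
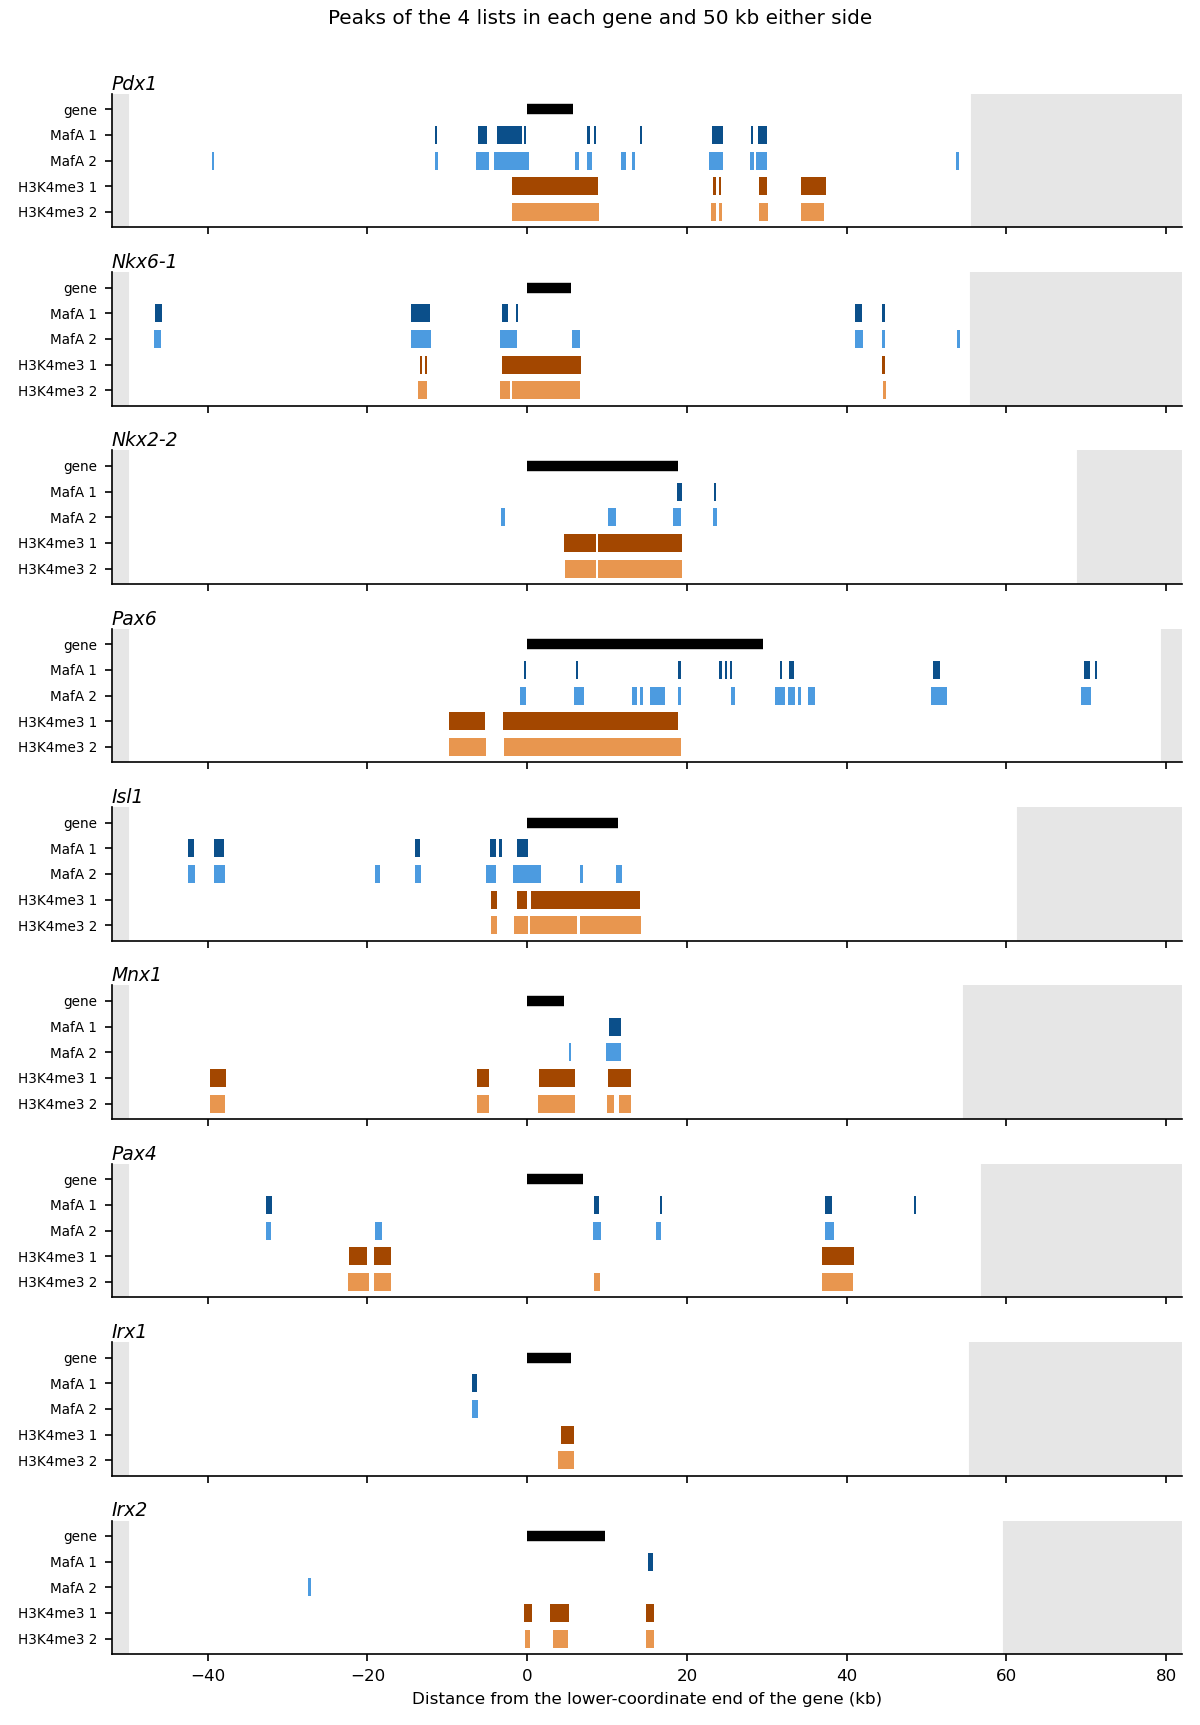
Peaks of MafA replicates 1 and 2 (dark and light blue) and H3K4me3 replicates 1 and 2 (dark and light orange) for each gene, drawn to scale as distance in kb from the lower-coordinate end of the gene (black bar); grey lies outside the window. At every member but Irx2 some MafA peaks recur at the same place in both replicates, and the H3K4me3 block at Pax6 is the longest.

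Pdx1, the factor that founds the pancreas and activates insulin transcription, is on chromosome 5 from 147270097 to 147275848. Its strongest MafA region ran from 147265984 to 147270387, across the upstream flank and the start of the gene, and within the antisense transcript gene Plut. Its 2 MafA replicates had fold enrichments of 18.2 and 25.0, a mean of 21.6 ± 4.84 (SD, n = 2), with 425 and 1104 fragments at the summit. The summits lay 2263 and 2265 bp upstream of the start. They fell outside the H3K4me3 region at the start, which began at 147268202 and which the MafA region overlapped in part. Both measures put this MafA region above nearly all others of the genome, at percentile 98.1 by fold enrichment and 99.95 by fragments. As background, the conserved control areas upstream of Pdx1 are described targets of MafA. A second upstream region had summits 5661 and 5642 bp before the start, with fold enrichment of 8.90 and 9.79. The farthest upstream lay 11507 and 11470 bp before it, with 6.76 and 7.03.

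Downstream of Pdx1 the regions were spread towards Cdx2, the neighbouring intestinal homeobox gene. The strongest had summits 17704 and 17672 bp beyond the upper end of Pdx1, in the long noncoding gene Gm35112, with fold enrichment of 15.6 and 14.4. Its values did not overlap those of the upstream region. Another, 23753 and 23751 bp beyond the gene, had 6.88 and 7.18. Both lay over H3K4me3 of low fold enrichment. At the first these were 2 narrow regions, of 591 and 352 bp, with 3.98 and 2.22 in the one and 2.42 and 2.66 in the other. At the second it was a region of 1111 bp with 5.60 and 3.91. The remaining regions, 1825 and 1892 bp and 22409 and 22324 bp beyond the gene, were weak, at 2.42 and 3.41 and at 4.14 and 4.77. No MafA region overlapped the H3K4me3 region at Cdx2, whose fold enrichment was 9.79 and 11.2.

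Nkx6-1, a repressor that keeps beta cells from other islet fates, is on chromosome 5 from 101659184 to 101664711, on the minus strand. Its strongest MafA region was 39072 and 39066 bp upstream of the start, from 101703577 to 101704006 within the long noncoding gene 9430085M18Rik. The replicates stood at 13.5 and 13.4, on 43 and 78 fragments. It lay over a 458 bp H3K4me3 region with fold enrichment of 3.34 and 3.91. The next upstream region, at 36003 and 35918 bp, had 5.41 and 6.58. On the downstream side, summits 2722 and 2727 bp beyond the lower end had 6.03 and 6.13, those at 13629 and 13623 bp had 4.42 and 5.99, and those at 46411 and 46426 bp had 7.95 and 10.3. The one nearest the gene rested on the most fragments of the 5, 77 and 171. All 5 regions lay outside the gene body.

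Isl1, a LIM homeodomain factor of endocrine cells and motor neurons, is on chromosome 13 from 116298270 to 116309688, on the minus strand. No other gene of the table lay in its window. The strongest MafA region was distal, from 116259067 to 116260401, with summits 38431 and 38451 bp beyond the lower end. Its fold enrichment was 12.4 and 13.6, on 48 and 98 fragments, and no H3K4me3 region overlapped it. At the end of the gene opposite to its start, a region with summits 408 and 415 bp beyond the gene had 8.18 and 8.22. This one rested on more fragments, 122 and 241, so the order of the pair depended on the measure. The other 3 had mean values between 3.54 and 5.65.

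Mnx1, a factor of beta cells and motor neurons, is on chromosome 5 from 29473823 to 29478470, on the minus strand. It had a single MafA region, from 29483753 to 29485631, with summits 6117 and 6192 bp upstream of the start. Its fold enrichments were 19.7 and 24.7, a mean of 22.2 ± 3.57 (SD, n = 2), on 138 and 334 fragments. This was the highest mean of any member, and its replicates lay within the range of those at Pdx1. The region lay over an H3K4me3 region of 2976 bp. H3K4me3 replicate 1 had a single peak there, at 4.28, with its summit 6232 bp upstream of the start. Replicate 2 had 2 peaks, at 4.35 with its summit 6161 bp upstream and at 10.4 with its summit 7259 bp upstream.

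Pax6, a paired-domain and homeodomain factor of the eye, brain and all islet endocrine cells, is on chromosome 2 from 105668896 to 105698410. It had the most MafA regions but none of the strongest. The highest was 40368 and 40340 bp beyond its upper end, inside Elp4, at 7.72 and 10.8. Elp4 overlaps the downstream flank, where long-range enhancers of Pax6 are known. Within Elp4 lay 3 further regions, with 3.33 and 6.27, 6.62 and 8.71, and 7.11 and 7.87. The 3 regions over the H3K4me3 block of Pax6 were the weakest, with mean values from 2.75 to 3.03. They included the one at the first start, whose summits were 312 and 227 bp upstream, at 2.89 and 3.17. By fragments at the summit, the leading region of Pax6 was another of these 3, inside the gene, with 90 and 170 fragments and fold enrichment of 2.99 and 2.51.

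Nkx2-2, a homeodomain factor required for beta and alpha cells, is on chromosome 2 from 147176485 to 147195434, on the minus strand. Its main MafA region ran from 147194781 to 147195820, at the upper end of the gene model and 8987 and 8958 bp upstream of the listed start. Fold enrichment was 7.62 and 8.13, on 135 and 260 fragments. A weaker region 4509 and 4548 bp beyond the gene had 4.21 and 6.52. Both MafA regions overlapped the gene Nkx2-2os.

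Pax4, the factor of endocrine progenitors, had 4 MafA regions, and the alpha cell factors Irx1 and Irx2 had 1 and 0. Pax4 is on chromosome 6 from 28442334 to 28449340. The region nearest to it, 1729 and 1993 bp beyond its upper end, had 4.56 and 4.33. Its strongest, at 7.25 and 7.58, was 30719 and 30625 bp beyond that end, inside Snd1 and over the H3K4me3 region there. Irx1 is on chromosome 13 from 71958232 to 71963723. Its only region had summits 6456 and 6341 bp below the lower end, with 7.42 and 10.8 on 27 and 81 fragments. Irx2 is on chromosome 13 from 72624430 to 72634196 and had 1 MafA peak in each replicate, at different places. The first lay 5887 bp above the gene at 4.24, over an H3K4me3 region of 1011 bp, and the second 27220 bp below it at 3.46.

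**Figure D3:**
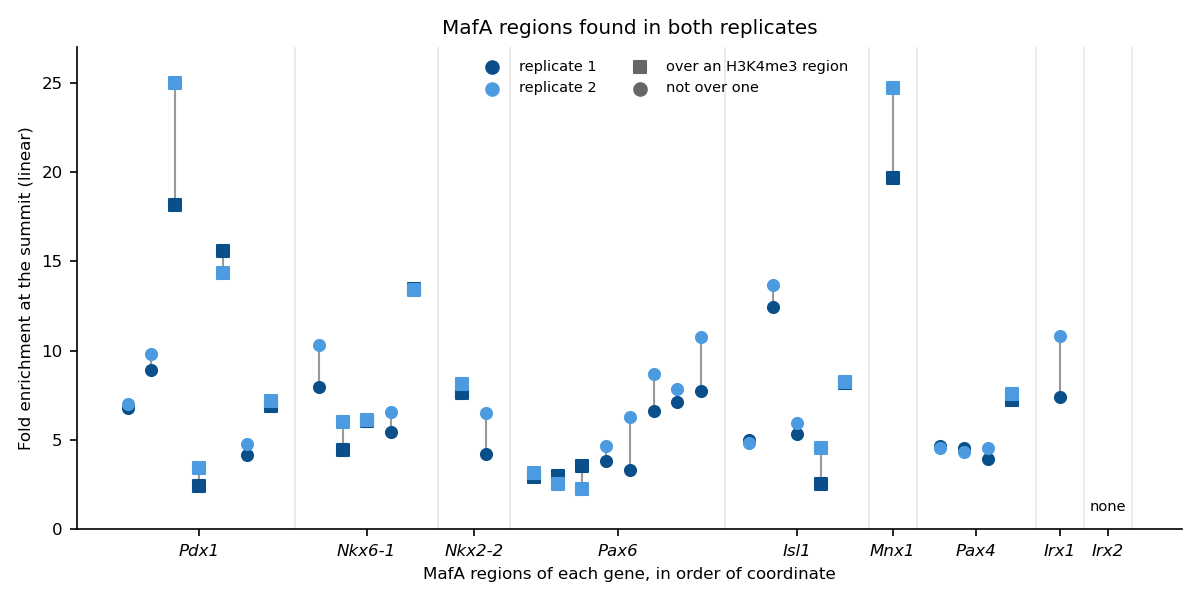
Fold enrichment (linear) of every MafA region found in both replicates, by gene and in order of coordinate; dark and light blue are replicates 1 and 2, squares lie over an H3K4me3 region and circles do not. The regions at Pdx1 and Mnx1 that reach 25.0 and 24.7 in replicate 2 stand above the others.

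By the fold enrichment of the strongest region of each gene, the members fell into 3 ranges that did not overlap between replicates. Mnx1 and Pdx1 lay between 18.2 and 25.0, Nkx6-1 and Isl1 between 12.4 and 13.6, and Pax6, Irx1, Nkx2-2 and Pax4 between 7.25 and 10.8. Neighbours in the order within a range overlapped in their replicates, except that the lower value of Nkx2-2, 7.62, was just above the higher of Pax4, 7.58. The median of the 8 means was 11.1, against 7.16 for all protein-coding genes with a region. The strongest of many regions tends to be higher than the strongest of few, and the part of region number in this difference was not tested. Over all 33 regions the median was 6.08, against 5.75 for all MafA regions. The window and the measure set this order in part. By fragments, Nkx2-2 (percentile 96.0) stood above Isl1 (94.9), and Nkx6-1 (88.2) below Pax6 (89.2) and Pax4 (89.8). Within 10 kb the strongest region of Nkx6-1 had a mean fold enrichment of 6.08 and that of Isl1 one of 8.20. Within 100 kb the strongest region of Pax4 had a mean of 32.2 and that of Nkx6-1 one of 20.9, and Nkx6-1 then had 16 regions.

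A shared MafA region lay within 1 kb of a start at 2 of the 9, Pdx1 and Pax6. Over all protein-coding genes 19.9% had one, so the members' count is near that background, and over those with H3K4me3 at a start 33.4% had one. The count depends on which starts are listed. The main region of Nkx2-2 had summits 45 and 74 bp inside the upper end of the gene model, its 5′ end on the minus strand. It did not count, since the only listed start of Nkx2-2 lies within the gene. Of the 33 regions, 2 had their mean summit within 2 kb of the nearest start, 10 between 2 and 10 kb, and 21 farther out, in windows that lie for the most part beyond 10 kb from a start. For Pax4 and Irx1, which have no listed start, the nearer gene end was used. The 2 nearest were at Pax6 and Pax4. The region across the start of Pdx1 fell in the next class, with summits 2263 and 2265 bp upstream. Among the 28 regions of genes with a listed start, 9 were upstream of it and 19 downstream. Replicate 2 had peaks near starts that replicate 1 lacked. They lay 409 bp upstream at Nkx6-1, 535 bp upstream at Nkx2-2, 853 bp upstream at Mnx1, 162 bp downstream at Isl1, and 339 bp upstream and 834 bp downstream of the second listed start of Pax6. Their fold enrichment was low, between 2.24 and 4.26, on 55 to 162 fragments.

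H3K4me3 peaks recurred more often than those of MafA. In the windows 27 of 27 peaks of H3K4me3 replicate 1 lay in a shared region (97.7% for its whole list), and 29 of 30 of replicate 2 (93.1%). A region of both H3K4me3 replicates lay within 1 kb of a start of 8 of the 9 genes, all but Pax4, against 57% of all protein-coding genes. At 5 of them it was among the 1% widest of all 15573 H3K4me3 regions, against 0.749% of all protein-coding genes and 1.31% of those with H3K4me3 at a start. At Pax6 it was the widest region of the genome, 22268 bp from 105665843 to 105688110. The next widest region measured 15259 bp. The region at Isl1 was 13869 bp wide and ranked 5, that at Pdx1 10896 bp and ranked 8, that at Nkx2-2 10503 bp and ranked 12, and that at Nkx6-1 10068 bp and ranked 16. These 5 genes thus held 5 of the 16 widest regions, a cutoff set by the rank of Nkx6-1 itself. The wide region at Pax6 also overlapped Pax6os1, and that at Nkx2-2 also overlapped Nkx2-2os and 6430503K07Rik. The median width was 1837 bp over all. This comparison of widths was added after seeing the data.

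These 5 genes also had a peak among the 1% widest in each H3K4me3 library taken alone. The Pax6 peak was 21992 bp wide in replicate 1 and 22140 bp in replicate 2, the widest of either list. At Pdx1 the widths were 10827 and 10880 bp, and at Nkx2-2 10500 and 10490 bp. At Nkx6-1 they were 9892 and 8533 bp, where replicate 2 had a gap near the lower end of the gene. At Isl1 replicate 1 had a single peak of 13587 bp, and replicate 2 had it in pieces, the widest of 7686 bp, which ranked 28 of 16904.

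The other marked members had narrower regions. That at Mnx1 was 4656 bp wide and ranked 275, and was strong, with fold enrichment of 32.0 and 23.6. The alpha cell genes had ordinary widths, 2007 bp at Irx1 (percentile 56.6) and 2266 bp at Irx2 (percentile 66.5). Their fold enrichment was 12.9 and 12.6 at Irx1 and 8.35 and 9.17 at Irx2, against a range from 15.2 to 32.0 over the 6 factors of beta cells. These are the highest values in each region and not values at the start. At Nkx2-2 they lay 7913 and 7926 bp from the nearest listed start, and at Pax6 6041 and 6014 bp. At Pax4 the H3K4me3 regions of the window overlapped Gcc1, Arf5 and Snd1. Replicate 2 alone had a further peak, 1728 bp beyond the upper end of Pax4, at 3.32, under the MafA region nearest to the gene.

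**Figure D4:**
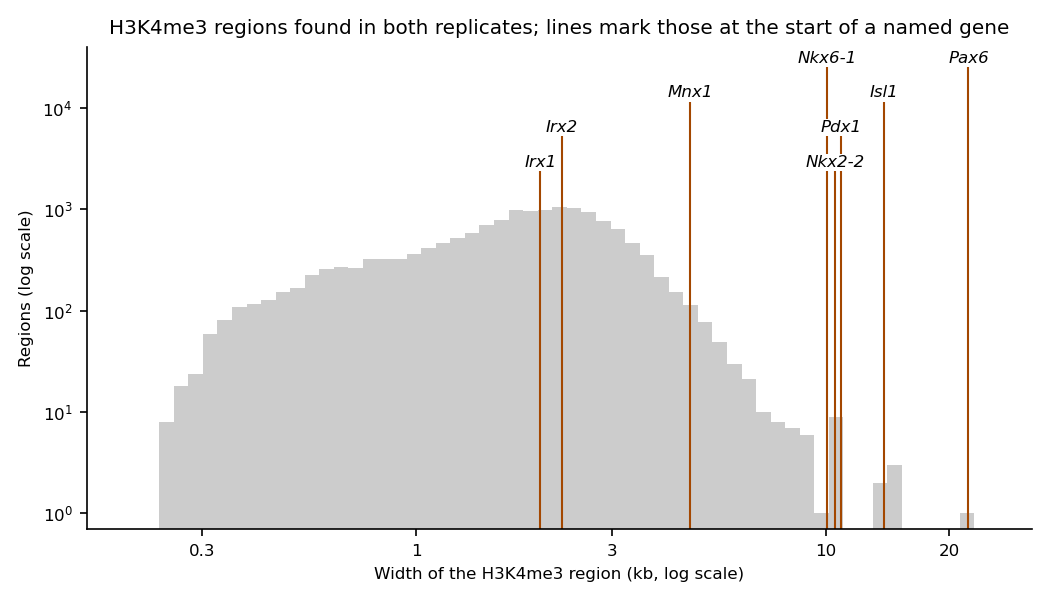
Width of all 15573 H3K4me3 regions found in both replicates (horizontal axis in kb, log scale) against their number (log scale); lines mark the region at the start of each member that has one. Pax6, Isl1, Pdx1, Nkx2-2 and Nkx6-1 stand in the far right tail at 10068 bp or more, and Irx1 and Irx2 near the middle.

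H3K4me3 lay under 15 of the 33 MafA regions of the windows. That is 45.5%, with a 95% Wilson interval from 29.8 to 62.0% that covers counting error only, and the share over all MafA regions was 23.5%. The windows were chosen around genes, so the shares describe different surroundings. Among these 15, 8 overlapped the H3K4me3 region at the start of the member. The rest lay over smaller regions, or over that of a neighbour at Pax4. MafA summits in H3K4me3 regions were nearer to the edges in these windows, at a median of 32.0% of the way from edge to centre, with both summits inside in 14 of the 15, against 59.8% over all such MafA regions. Over the 196 MafA regions in H3K4me3 regions of 5 kb or more the median was 36.1%. The members' median also takes in H3K4me3 regions narrower than 5 kb, so these medians cover unlike sets. The part of width in the edge position was not tested.

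Regions over H3K4me3 had a median fold enrichment of 6.88 and 7.18 in the MafA replicates, and the others 5.38 and 6.55. Over the whole genome the order was the opposite, at 4.24 and 4.54 over H3K4me3 and 5.84 and 6.40 elsewhere. Fragments at the summit were more numerous over H3K4me3 in both settings, with medians of 90 and 171 against 25.5 and 63.5 in these windows. The modelled background moved with them, at 12.0 and 17 over H3K4me3 against 3.49 and 5.11, and its part in the difference was not tested.

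Peaks in the windows were narrower for MafA than for H3K4me3. The library medians were 587 and 791 bp for MafA, a mean of 689 ± 144 bp (SD, n = 2), and 2147 and 1880 bp for H3K4me3, a mean of 2013 ± 189 bp (SD, n = 2). The difference of -1324 bp exceeded the spread between replicates. The exact permutation test of the 4 libraries gave p = 0.333 (two-sided), the smallest that 2 against 2 can give. The order of the genes by length under peaks differed between the targets. Pax6 was first in both H3K4me3 libraries. In both MafA libraries Pdx1 was first, with 8556 and 12714 bp, by a narrow margin over Pax6 in replicate 2. Pax6 had 26506 and 26757 bp under H3K4me3 and 4845 and 12702 bp under MafA, and Irx1 1650 and 2007 bp under H3K4me3 and 587 and 706 bp under MafA. Nkx2-2 combined 14497 and 14409 bp of H3K4me3 with 842 and 2983 bp of MafA.

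**Figure D5:**
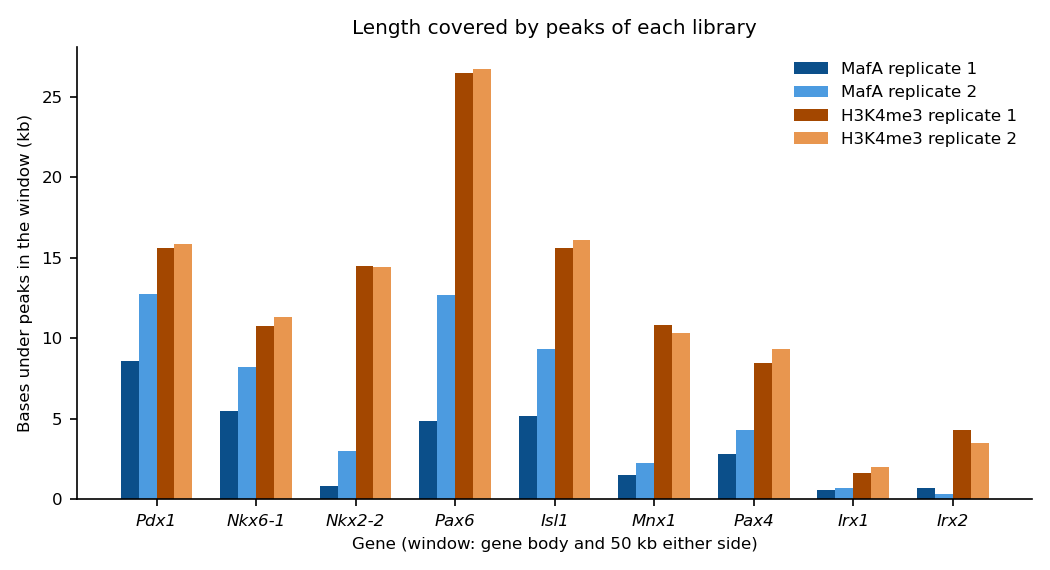
Length of each window under peaks of the 4 libraries (bars from 0, in kb; MafA in blue, H3K4me3 in orange, replicate 1 dark and 2 light). H3K4me3 exceeds MafA at every member in both replicates, and MafA replicate 2 exceeds replicate 1 at all but Irx2.

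Other homeobox genes gave the setting for these values. Of 17 further genes of the pancreas or islet, 16 had a MafA region within 50 kb, with a median of 4. Meis2 had 9 regions and the strongest value of that list, 26.0, followed in strength by Onecut2 at 21.9. Cdx2 had 7, which are those of Pdx1. Of 20 homeobox genes of other tissues, 11 had a region (55%), with a median of 1. Pax2 had the most, 9, and the strongest regions were near Pax8 at 28.7 and En1 at 23.2. H3K4me3 among the 1% widest lay at 2 of the 17, Meis2 and Onecut2, and at 1 of the 20, Pax2. No difference between the lists was tested.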

How the data were processed

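CUT&RUN libraries for MafA, H3K4me3 and IgG, 2 each, were grouped by their titles, and the 4 lists of MafA and H3K4me3 peaks were analysed. Per the submitters' processing notes, the tools and builds were MACS2, GRCm38 and mm10. The MACS2 version, aligner and control are not given in the sources used here. Fold enrichment at the summit, as deposited, is a ratio on a linear scale, and the deposited −log10 columns hold its p-value and q-value. The deposited score was not used. The lowest −log10 q was 2.00 to 2.04.

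Tools were scipy 1.17.1, pandas 2.3.3 and numpy 2.4.6 under Python 3.11.15, with figures from matplotlib 3.10.9. A region is the union of peaks of both replicates that share at least 1 bp, with the strongest peak of each giving its values. Whole fragments were recovered from fold enrichment (pseudocount 1) and the Poisson p-value, with a scaling factor per library and a relative tolerance of 0.0001, for 99.96% of H3K4me3 replicate 1 peaks and 100% of the others. Median summits held 758 and 263 fragments for H3K4me3 and 25 and 46 for MafA. The recovery returned 99.92% to 100% of fragments in simulated data. Gene positions are from RefSeq GRCm38.p6. Starts are those of the promoter table, or either gene end where it lists none.

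The members and lists were chosen with earlier results of these data known. All 9 members are named, with the genes overlapped by their MafA regions. Some of their H3K4me3 regions also overlapped genes named only here, Paupar at Pax6, Nom1 at Mnx1 and Gm20554 at Irx2. From each of the 2 lists of other homeobox genes, the genes with most MafA regions and those with the strongest are named. For the second list the tie after Pax2 was left unnamed. The full count over alpha cell markers is not reported here. The alternatives tried were a −log10 q minimum of 5, the 16020 strongest peaks of each library, 50% reciprocal overlap, windows of 10 and 100 kb, 500 bp and 2 kb from a start, other motifs, recovered fragments as the measure of strength, genes with H3K4me3 at a start as background, the replicate number as a block, and each library left out in turn.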

Additional observations from a re-analysis of the deposited data

How the results depend on the processing

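Of the 9 genes, 8 had a MafA region and 8 had H3K4me3 at a start under all thresholds, overlaps and windows tried, and 9 had a MafA region when either MafA library was left out, since Irx2 has a peak in each. The 33 MafA regions became 19 with equal numbers of the strongest peaks, 18 within 10 kb and 53 within 100 kb, as fewer peaks or other lengths entered, and 43 to 53 when a MafA library was left out (53 without MafA replicate 1). The median of the strongest regions, 11.1, was 8.04 within 10 kb, 17.0 within 100 kb and 7.72 to 10.8 when a MafA library was left out. The share over H3K4me3 ranged from 33.3% to 55.6%. The width difference was -2165 to -1059 bp. With the replicate number as a block it was -1324 bp with an exact permutation p of 0.5, and nothing in the labels pairs libraries by number. With the motifs TGCTGAC, TGCTGANTCAGCA and TAATTA 0 genes had a match in place of 1. With H3K4me3-marked genes as background, the share with a region was 84.2% in place of 66.1% and the median 2 in place of 1. The 5 genes at the 1% widest H3K4me3 regions stayed 5 in 4 alternatives. Both this measure of width and its alternatives were chosen after seeing the data.

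Among values of single genes, the value of the strongest region shifted beyond 1 SD of its replicates at Nkx6-1, Isl1 and Pax4 within 10 kb and at Nkx6-1, Nkx2-2 and Pax4 within 100 kb. The stricter threshold, equal numbers of peaks and stricter overlap left the same strongest region, with the same value, at all 8 genes that have one. Leaving out a MafA library cannot move a mean of 2 beyond their SD, so it does not test these values. Region numbers of single genes moved by more than 1.5 times in 23 of 58 cases. Pax6 had 3 in place of 8 with equal numbers of the strongest peaks. By fragments in place of fold enrichment another region was strongest at Nkx6-1, Pax6 and Isl1, and the median percentile of the strongest regions was 92.3 in place of 87.0. Window peaks of MafA replicate 1 rested on as few as 12 fragments, and at this depth a peak listed in 1 replicate only is not shown to be absent from the other.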
